A study of Mus musculus with 12 samples.

Results

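The genes described here are the semaphorins, a family of guidance ligands, and their receptors, the plexins and neuropilins. They were taken by gene symbol: 31 genes of the 41388 in the count tables, namely 20 semaphorins, 9 plexins and 2 neuropilins. RNA was sequenced from neurons of the dorsal root ganglia (DRG), which hold the cell bodies of the sensory neurons of the trunk and limbs, in adult C57BL/6 mice aged 3 months. The mice were heterozygous for a knocked-in, floxed Ret allele (RetFloxedEGFP) and carried Cre recombinase in Scn10a, which encodes the voltage-gated sodium channel NaV1.8 of nociceptors, so that EGFP appeared only after Cre had excised the floxed part in cells that use the Ret locus. Every library, at either level, therefore came from mice with 1 modified Ret allele and a Cre insertion at Scn10a; for the 4 libraries labelled last, the genotype field names only the Ret allele and the Cre stands in the sample name. EGFP+ cells were sorted from ganglia pooled over the lumbar levels L3 to L5 (L345) or over L6 and the sacral level S1 (L6S1). The 4 groups hold 3 libraries each: male and female L345, and male and female L6S1. Libraries carry the letters A, B and C, except B, C and D for females at L345, and values of a group are given in that order. The contrast in the title of the series is L6S1 against L345. Each library is a pool of 2 to 8 mice and 12 to 32 ganglia, and for male L345 C the labels give both 5 and 3 mice. The labels do not tell whether the same mice gave ganglia of both levels, and they do not say that pools shared no animal, so p-values measure the spread between pools.

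Semaphorins are secreted or membrane-bound proteins first known for steering growing axons. Class 3 semaphorins are secreted and mostly bind a neuropilin, which has no signalling domain of its own and pairs with an A plexin. The membrane-bound classes mostly bind plexins directly. Plexins then act on the cytoskeleton. In sensory neurons Sema3a is the classic repellent of nociceptor axons and Nrp1 its binding receptor. In bulk libraries such as these, fewer cells of a type and less RNA per cell cannot be told apart.

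Total counts per library ran from 16176436 to 26694404, so that 3 counts correspond to 0.112 to 0.185 CPM, the count scaled to a fixed library total. Scn10a stood at 573 CPM on average at L345 and 429 at L6S1, and Ret at 176 and 165 CPM, so both genes that define the sorted cells were present in every library. Of the 12 libraries, 4 (female L345 D, male L6S1 C and female L6S1 B and C) have later accession numbers and another label style. These are called the later set here, and 3 of the 4 are L6S1 libraries. The labels do not say that it was a sequencing batch. Markers of Schwann and satellite glia were present at both levels, with a summed level of 3723 to 4392 CPM at L345 and 3924 to 4778 at L6S1, and 0 of 12 tested were called between levels (their leading gene Pmp22: 2415 CPM at L345 and 2980 at L6S1). Markers of leukocytes summed to 5.51 to 6.79 CPM at L345 and 12.1 to 202 at L6S1, where the highest value was that of female L6S1 C and the next 18.1. Of 6 leukocyte markers tested, 3 were higher at L6S1 (C1qb, Cd74 and Trac); the leading gene Cd74 averaged 1.502 and 26.5 CPM, Ptprc 0.115 and 0.389 CPM, and C1qa and Cd3e were at 0 in all L345 libraries. Fibroblast markers summed to 70.1 to 93.4 CPM at L345 and 126 to 336 at L6S1, and 1 of 6 tested, Dcn, was higher (64.3 and 213 CPM). Endothelial and mural markers summed to 235 to 336 CPM at L345 and 244 to 432 at L6S1, with 0 of 9 tested called (leading gene Rgs5: 245 and 286 CPM). The defining endothelial genes Pecam1 and Cdh5 averaged 0.689 and 0.161 CPM at L345 and 1.22 and 0.443 CPM at L6S1. Among sensory neuron classes, 2 of 9 markers of the Mrgprd class were called, both lower at L6S1 (Runx1 at 129 and 74.7 CPM, Lpar3 at 70.98 and 46.1; list median -0.27), and of 5 markers of C low-threshold mechanoreceptors 1 was, also lower (Piezo2, 224 and 132 CPM; list median -0.29). Of 8 peptidergic markers 3 were higher at L6S1 (Gal, 229 and 503 CPM; Tac1, 2349 and 3519; Trpv1, 543 and 779; list median 0.46). None of 6 markers of itch neurons and none of 7 of large myelinated neurons was called by edgeR, with 3 and 1 at an unadjusted p under 0.05 (medians 0.06 and -0.06). The leading gene of each of these 5 lists by level was not called: Cd55 (990 and 898 CPM), Th (629 and 892), Calca (6144 and 8140), Il31ra (122 and 144) and Nefm (577 and 393). The part of cell composition in the results below was not tested beyond a fit with the glial marker level as a covariate.

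The 4 promoters below are shown because they belong to the 3 genes called between levels and to Nrp2, the other neuropilin. Each is the stretch of 250 bases before the RefSeq start of the gene (build GRCm38.p6, plus strand, written 5′ to 3′). The motifs searched on both strands were the E-box CANNTG, the TATA box TATAAA, the CCAAT box CCAAT and the GC box GGGCGG, and matches are in capitals. GC box matches may overlap each other.
Nrp1, chr8:128358823-128359072: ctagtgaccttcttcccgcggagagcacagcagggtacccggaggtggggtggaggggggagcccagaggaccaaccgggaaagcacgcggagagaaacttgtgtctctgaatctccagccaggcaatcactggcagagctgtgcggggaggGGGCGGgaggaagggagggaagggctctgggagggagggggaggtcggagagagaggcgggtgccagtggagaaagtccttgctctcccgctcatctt
Nrp2, chr1:62703067-62703316: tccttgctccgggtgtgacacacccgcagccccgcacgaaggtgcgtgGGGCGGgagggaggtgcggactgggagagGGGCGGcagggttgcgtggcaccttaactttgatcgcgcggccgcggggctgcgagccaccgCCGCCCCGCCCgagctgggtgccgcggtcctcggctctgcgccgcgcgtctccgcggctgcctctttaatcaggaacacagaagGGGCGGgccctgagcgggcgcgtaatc
Sema4b, chr7:80186620-80186869: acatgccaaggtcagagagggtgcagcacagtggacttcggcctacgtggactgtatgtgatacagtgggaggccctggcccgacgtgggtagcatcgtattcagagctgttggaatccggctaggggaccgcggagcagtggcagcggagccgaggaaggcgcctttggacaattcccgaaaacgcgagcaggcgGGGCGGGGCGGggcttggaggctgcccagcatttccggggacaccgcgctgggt
Sema3a, chr5:13396534-13396783: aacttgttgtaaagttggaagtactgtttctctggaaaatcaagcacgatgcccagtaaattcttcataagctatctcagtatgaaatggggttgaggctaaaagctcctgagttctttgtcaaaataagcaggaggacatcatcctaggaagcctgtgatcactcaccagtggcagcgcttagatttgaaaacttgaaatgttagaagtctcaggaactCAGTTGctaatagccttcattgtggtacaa
The Nrp1 stretch had a GC content of 64.4% with 11 CpG and 1 GC box, and that of Nrp2 72.4% with 32 CpG and 5 GC boxes. The Sema4b stretch, the first of its 2 listed starts, had 64.4% GC with 20 CpG and 2 overlapping GC boxes. The Sema3a stretch differed in make-up, with 40.8% GC, 2 CpG, 1 E-box and no GC box. Across 32851 stretches of the same length in the RefSeq table the median GC content was 52.4% and the median CpG number 6. Promoters of 26 of the 31 genes were in the table (37 stretches), with medians of 64.0% GC and 13 CpG. A GC box was found in 27 of these 37 stretches (73.0%) and in 32.7% of all stretches. An E-box stood in 19 (51.4%, all stretches 66.2%), a CCAAT box in 7 (18.9%, all 33.8%) and a TATA box in 0 (all 12.4%). These matches describe the letters in the window and nothing about a factor.

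Levels between genes were compared as RPKM, the CPM per kilobase of gene length, over the 12 libraries. The sorted neurons held most RNA per length of the receptor Plxnc1 (24.4 ± 6.47 RPKM, mean ± SD, n = 12), which binds Sema7a, followed by Nrp1 at 16.05 ± 4.79 RPKM. The highest ligands were 3 membrane-bound class 4 semaphorins: Sema4d at 9.37 ± 2.19, Sema4b at 6.87 ± 2.53 and Sema4f at 6.07 ± 1.48 RPKM. Between Sema4b and Sema4f stood Plxnd1, the receptor of Sema3e, at 6.51 ± 1.37 RPKM, and these 3 neighbours lie within their spread of each other. Sema6d followed at 4.51 ± 1.02 RPKM. Plxna2, Sema3e, Sema3c and Plxna4 lay between 2.51 and 2.70 RPKM and did not differ beyond their spread. The other neuropilin, Nrp2, stood at 1.08 ± 0.251 RPKM, beside Plxna3 at 1.08 ± 0.371. Sema7a, the ligand of Plxnc1, stood at 0.590 ± 0.267 RPKM. At the low end were Sema3a at 0.0821 ± 0.0624 and, below it, Sema6c, Sema3g, Sema5b and Sema6b at 0.0503, 0.0502, 0.0132 and 0.0062 RPKM. Of the 10 genes highest by RPKM, 9 were also among the 10 highest by CPM. For Sema6c, 47.9% of the exon bases overlap another annotated gene on the same strand, so its reads are uncertain.

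**Figure D1:**
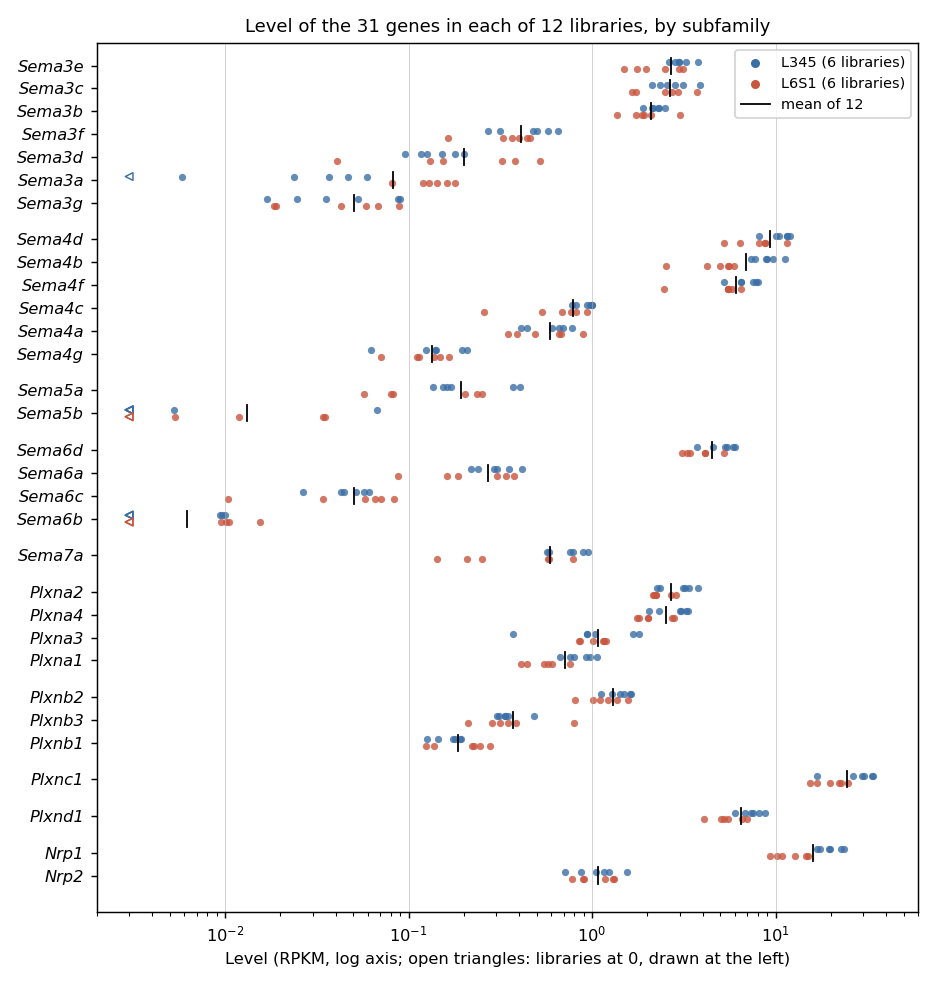
Level of each of the 31 genes in RPKM (x axis, log scale) in the 6 L345 libraries (blue) and 6 L6S1 libraries (red), with genes grouped by subfamily on the y axis, a black bar at the mean of 12 and open triangles for libraries at 0. Plxnc1 and Nrp1 lie furthest right at 24.4 and 16.05 RPKM, and Sema5b and Sema6b furthest left.

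Between L345 and L6S1, 3 of the 27 members tested differed: the receptor Nrp1 and the membrane ligand Sema4b fell to 72.2 and 26.3 CPM from 117 and 48.2 CPM, and the secreted ligand Sema3a, scarce at both levels, rose from 0.184 to 0.885 CPM. The other 24 were not called. The test was the edgeR quasi-likelihood F-test with Benjamini-Hochberg adjustment over all 15281 genes tested, of which the same rule called 2.33%, and 0.877% as lower at L6S1. The 27 genes are those that passed the filter on low counts (about 0.403 CPM in at least 3 libraries). Sema3g, Sema5b, Sema6b and Sema6c did not, with 63, 26, 7 and 87 counts over all 12 libraries. Sema3a passed through the L6S1 libraries alone, so a gene with its pattern had to differ in order to be tested, and no other member passed through one level only.

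Nrp1 (ENSMUSG00000025810, chromosome 8, 128359073 to 128505462, plus strand, GRCm38.p2) had the smallest p of the members. It measured 132, 104 and 116 CPM in male and 137, 114 and 98.3 CPM in female L345 libraries. Its L6S1 levels were 61.4, 87.3 and 63.7 CPM in male and 87.3, 76.4 and 57.1 CPM in female libraries. Every L6S1 library lay below every L345 library, the nearest pair being 87.3 and 98.3 CPM. The mean fell from 117 ± 15.1 to 72.2 ± 13.3 CPM (SD, n = 6 each), a log2 fold change of -0.69 ± 0.14 (SE) with an adjusted p of 0.0263 by the edgeR quasi-likelihood test. The call was lost in the fits with the label set as a term (-0.59, adjusted p = 0.0606, edgeR) and with the glial marker level as covariate (-0.66, 0.125). It was also lost in 6 of 12 fits that each left out 1 library (male L345 A or C, female L345 B or C, male L6S1 A or C), where the value stayed between -0.78 and -0.61 over all 12 fits and the share of all genes called in those 6 fits was 0.51% to 0.816%. Within the 8 earlier libraries the log2 fold change was -0.60, and with both female L6S1 B and C left out it was -0.58. In these fits female L6S1 A stands alone in its group, so only the effect size is given. An annotated microRNA gene, Mir1903, shares 1.35% of the Nrp1 exon bases on the same strand.

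Nrp2, which binds class 3 semaphorins such as Sema3f and also VEGF family growth factors, gave 10.1, 8.47 and 13.8 CPM in male and 14.3, 12.2 and 18.2 CPM in female L345 libraries. At L6S1 it gave 9.37, 10.8 and 15.5 CPM in male and 13.7, 10.8 and 15.96 CPM in female libraries. The levels overlapped through their whole range, with means of 12.8 ± 3.40 and 12.7 ± 2.74 CPM (SD, n = 6 each). Its log2 difference was -0.00 ± 0.18 (SE; adjusted p = 0.99, edgeR), and its sign turned under several settings. The ratio of Nrp1 to Nrp2 within a library (RPKM over RPKM) ran from 10.9 to 26.0 at L345 (median 18.9) and from 7.17 to 16.2 at L6S1 (median 13.0), with overlap. These ratios describe a gene already chosen for its difference and were not tested.

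**Figure D2:**
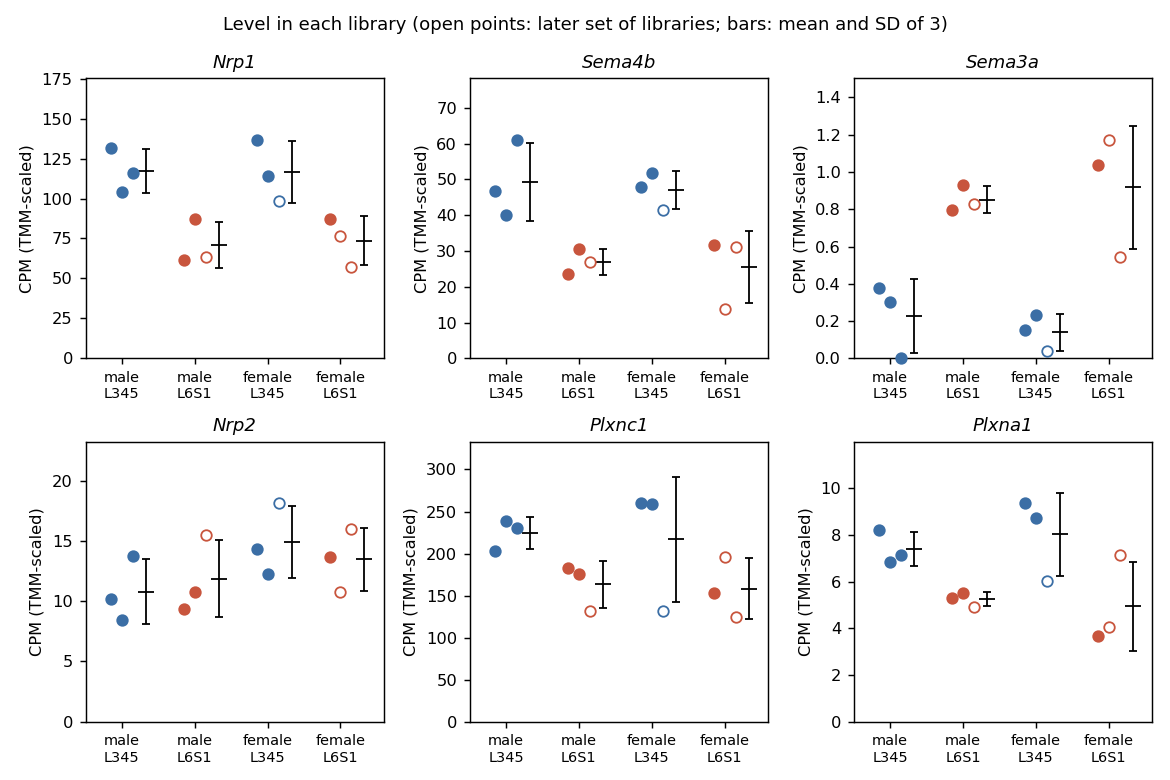
TMM-scaled CPM (y axes, from 0) of Nrp1, Sema4b, Sema3a, Nrp2, Plxnc1 and Plxna1 in each library of the 4 groups (x axes), blue for L345 and red for L6S1, open points for the later set and black bars for mean ± SD of 3. Nrp1 at L6S1 stays at 57.1 to 87.3 CPM below 98.3 to 137 at L345, whereas Nrp2 overlaps fully and Plxnc1 in female L345 D (131) lies among the L6S1 values.

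Among the ligands, Sema4b (ENSMUSG00000030539, chromosome 7, 80186841 to 80226394, plus strand), a membrane-bound class 4 semaphorin, fell from L345 to L6S1. Its values were 46.9, 39.9 and 61.1 CPM in male and 47.9, 51.9 and 41.4 CPM in female L345 libraries. The L6S1 values were 23.5, 30.7 and 26.8 CPM in male and 31.7, 13.9 and 31.05 CPM in female libraries. No L6S1 library reached the lowest L345 library, and female L6S1 B was the lowest of all 12. The mean went from 48.2 ± 7.70 to 26.3 ± 6.82 CPM (SD, n = 6 each), a log2 fold change of -0.88 ± 0.19 (SE; adjusted p = 0.0327, edgeR). Without female L6S1 B the value was -0.73 (adjusted p = 0.0235, edgeR). Within the 8 earlier libraries, with female L6S1 A alone in its group, it was -0.77. The call was lost with the label set as a term (-0.79, adjusted p = 0.0988), with the glial covariate (-0.78, 0.137) and in 7 of 12 fits that left out 1 library (any of male L345 A or C, female L345 B or C, or male L6S1 A, B or C), where values over all 12 ran from -0.97 to -0.73.

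The most abundant class 4 member, Sema4d, a ligand of B plexins, measured 72.7, 52.6 and 77.5 CPM in male and 66.01, 73.9 and 63.9 CPM in female L345 libraries. At L6S1 it measured 53.2, 57.2 and 56.1 CPM in male and 73.3, 34.3 and 42.8 CPM in female libraries. The levels overlapped, since female L6S1 A was among the highest values and female L6S1 B the lowest. Its log2 difference was -0.36 ± 0.17 (SE; adjusted p = 0.188, edgeR), and it was called without female L6S1 A (adjusted p = 0.00723), a fit that called 25.7% of all genes and also Sema4c, Sema7a (0.0103) and Plxnd1 (0.0494). Sema4b over Sema4d within a library (RPKM over RPKM, not tested) ran from 0.766 to 0.936 at L345 and from 0.481 to 0.861 at L6S1 (medians 0.847 and 0.546), where the value of 0.861 in female L6S1 C made the overlap. The other class 4 genes, Sema4a, Sema4c, Sema4f and Sema4g, had log2 differences of -0.06, -0.47, -0.40 and -0.18 and were not called. All 6 class 4 semaphorins were thus below 0, with a median of -0.38, against 55.5% of all genes below 0 and a median of -0.06. With GC and length offsets 4 of the 6 were below 0 (Sema4a 0.03 and Sema4g 0.05), in the 8 earlier libraries Sema4a stood at 0.09, and with the glial covariate Sema4g stood at 0.16. Sema4a was also above 0 with upper-quartile scaling and without both female L6S1 B and C. The same held in fits that left out female L345 C, female L6S1 B or C, male L345 A or male L6S1 A. Without male L345 A, Sema4g was above 0 as well.

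Sema3a (ENSMUSG00000028883, chromosome 5, 13396784 to 13602565, plus strand), the secreted repellent that binds Nrp1, was the 1 member called higher at L6S1, at a level near the detection limit. Counts were 8, 6 and 0 in the male and 4, 6 and 1 in the female L345 libraries, 25 in all. At L6S1 there were 20, 22 and 22 in the male and 17, 27 and 13 in the female libraries, 121 in all. The count of 0 in male L345 C allows a level of up to 0.121 CPM, covering counting error only. In CPM the levels did not overlap: 0 to 0.377 at L345 and 0.545 to 1.17 at L6S1, with means of 0.184 ± 0.149 and 0.885 ± 0.217 CPM (SD, n = 6 each). The log2 fold change was 2.30 ± 0.51 (SE; adjusted p = 0.0334, edgeR). The filter kept Sema3a only through its L6S1 values. With its L345 values it could be tested here only if higher at L6S1, so the direction is no support by itself. Without a filter Sema3a had a value of 2.30 ± 0.46 (SE, adjusted p = 0.000958, edgeR), in a fit that called 3.15% of all genes. Under a stricter filter (6 libraries with 1 CPM or more) it was not tested. Sema3a was not called with the label set as a term (2.47, adjusted p = 0.0655, edgeR) or with the glial covariate (2.43, 0.114). Its value was 2.17 within the 8 earlier libraries and 2.39 with female L6S1 B and C left out. In these 2 fits female L6S1 A stands alone in its group, so only the effect size is given. Among the 12 fits without 1 library Sema3a was called only without female L345 D, female L6S1 A or female L6S1 C. Values ran from 1.98 to 2.61 over the 12. Leukocyte and fibroblast markers also stood higher at L6S1 in these libraries (above). Female L6S1 C, with a leukocyte sum of 202 CPM, had the lowest Sema3a level of the 6 L6S1 libraries (0.545 CPM). The others had leukocyte sums of 12.1 to 18.1 CPM. All L6S1 libraries exceeded all L345 libraries (70.1 to 93.4 CPM) in fibroblast sum, as in Sema3a. Female L6S1 A and B (296 and 287 CPM) exceeded the male L6S1 libraries (126 to 184 CPM) in both. Female L6S1 C, with the highest fibroblast sum (336 CPM), went the other way. At L345 the highest fibroblast sum, in female L345 D, went with 0.0371 CPM of Sema3a. The part of these cells in the Sema3a result was not tested.

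Sema3e, which binds Plxnd1 without a neuropilin, was the highest class 3 semaphorin per length. It gave 24.2, 22.7 and 22.6 CPM in male and 28.04, 21.2 and 19.7 CPM in female L345 libraries. At L6S1 it gave 13.7, 19.2 and 14.8 CPM in male and 23.4, 22.9 and 11.8 CPM in female libraries. Male L6S1 and female L6S1 C were below all L345 libraries, while female L6S1 A and B lay among them. The log2 difference was -0.40 ± 0.18 (SE; adjusted p = 0.17, edgeR), not called. Sema3a over Sema3e within a library (RPKM over RPKM, not tested) was 0 to 0.0183 at L345 and 0.0520 to 0.0681 at L6S1, so that Sema3a stayed far below Sema3e at both levels. Sema3d had means of 0.937 ± 0.256 and 1.70 ± 1.17 CPM and a log2 difference of 0.80 ± 0.44 (SE, adjusted p = 0.256, edgeR). Within the 8 earlier libraries the difference was 1.30. There female L6S1 A, the library with the highest Sema3d level (3.36 CPM), stands alone in its group. Sema3b, Sema3c and Sema3f had differences of -0.11, -0.11 and -0.36 and were not called. Sema3g, not tested, averaged 0.230 ± 0.141 CPM at L345 and 0.226 ± 0.130 at L6S1.

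In the other membrane-bound classes nothing was called. Sema5a, whose extracellular part carries thrombospondin repeats, gave 1.79, 1.67 and 4.02 CPM in male and 1.72, 4.30 and 1.45 CPM in female L345 libraries. At L6S1 it gave 0.635, 2.75 and 0.865 CPM in male and 2.50, 2.22 and 0.922 CPM in female libraries. Its libraries spread over more than the difference, -0.62 ± 0.42 (SE; adjusted p = 0.34, edgeR). Sema6d, a ligand of Plxna1, gave 54.7, 48.1 and 56.9 CPM in male and 61.9, 60.8 and 39.2 CPM in female L345 libraries. At L6S1 it gave 44.7, 56.1 and 34.4 CPM in male and 43.2, 36.5 and 33.9 CPM in female libraries. Male L345 A and B and female L345 D lay within the L6S1 range, whose top was male L6S1 B (56.1 CPM), and the difference was -0.38 ± 0.15 (SE; adjusted p = 0.146, edgeR). Sema6a had a difference of -0.34 ± 0.28 (adjusted p = 0.442). Sema5b, Sema6b and Sema6c had too few counts to be tested; of the 26 counts of Sema5b, 12 came from female L345 C.

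Sema7a, the only class 7 member and the ligand of Plxnc1 and of the integrin of Itga1 and Itgb1, is anchored to the membrane by a lipid. It measured 3.07, 1.93 and 2.57 CPM in male and 2.89, 2.46 and 1.86 CPM in female L345 libraries. In L6S1 pools it measured 2.66, 1.90 and 0.828 CPM in male and 1.89, 0.478 and 0.712 CPM in female libraries. The 3 low libraries, male L6S1 C and female L6S1 B and C, are the 3 L6S1 libraries of the later set. The log2 difference was -0.88 ± 0.34 (SE, adjusted p = 0.126, edgeR), not called. Within the 8 earlier libraries, with female L6S1 A alone in its group, it was -0.33.

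Plxnc1, its receptor and the highest gene here per length, measured 203, 239 and 231 CPM in male and 260.1, 259 and 131 CPM in female L345 libraries. Its L6S1 values were 182, 176 and 131 CPM in male and 154, 196 and 125 CPM in female libraries. Within the later set the L345 library (131 CPM) lay among the 3 L6S1 libraries (125 to 196 CPM), while all 3 L6S1 libraries of the earlier set lay below its 5 L345 libraries. The log2 difference was -0.46 ± 0.17 (SE, adjusted p = 0.128, edgeR) over all 12 libraries. Within the 8 earlier libraries, with female L6S1 A alone in its group, it was -0.55. Without female L345 D alone Plxnc1 was called (adjusted p = 0.0376, edgeR), in a fit that called 5.63% of all genes. Plxnd1, the receptor of Sema3e, measured 52.8, 43.4 and 58.6 CPM in male and 51.5, 62.5 and 48.7 CPM in female L345 libraries. At L6S1 it measured 48.3, 36.7 and 49.95 CPM in male and 37.3, 29.8 and 41.2 CPM in female libraries. The levels overlapped, and the difference was -0.39 ± 0.14 (SE; adjusted p = 0.104, edgeR).

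The A plexins are the signalling partners of neuropilins. Plxna2, the highest of them per length and a receptor of Sema6a, measured 46.2, 35.6 and 48.3 CPM in male and 50.1, 56.2 and 33.9 CPM in female L345 libraries. The L6S1 libraries gave 33.4, 40.97 and 33.4 CPM in male and 42.5, 33.99 and 33.6 CPM in female libraries. Male L345 B and female L345 D lay within the L6S1 range, and the difference was -0.31 ± 0.15 (SE; adjusted p = 0.195, edgeR). Plxna1 had the smallest p among members not called: it measured 8.21, 6.85 and 7.16 CPM in male and 9.37, 8.71 and 6.01 CPM in female L345 libraries. At L6S1 it measured 5.32, 5.50 and 4.93 CPM in male and 3.66, 4.04 and 7.12 CPM in female libraries. Only female L6S1 C (7.12 CPM) reached into the L345 range. Its difference was -0.59 ± 0.19 (SE, adjusted p = 0.0857, edgeR), and within the 8 earlier libraries -0.89. There female L6S1 A, the library with the lowest Plxna1 level (3.66 CPM), stands alone in its group. Without female L6S1 C Plxna1 was called (adjusted p = 0.028, edgeR). For Plxna1, 10.8% of the exon bases lie opposite another gene, Gm26811, whose reads cannot be told apart without strand. Plxna3 and Plxna4, the latter a partner of Nrp1 in Sema3a signalling, had differences of -0.07 ± 0.28 and -0.34 ± 0.17 (SE) and were not called.

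The B plexins, receptors of class 4 semaphorins, included the only plexins with values above 0, Plxnb1 and Plxnb3. Plxnb2, the highest of them per length, measured 11.3, 7.97 and 11.6 CPM in male and 10.4, 10.04 and 9.09 CPM in female L345 libraries. The L6S1 values were 8.93, 11.3 and 7.86 CPM in male and 7.14, 5.82 and 10.1 CPM in female libraries. The levels overlapped, and the difference was -0.24 ± 0.17 (SE; adjusted p = 0.359, edgeR). Plxnb1 and Plxnb3 had differences of 0.30 ± 0.23 and 0.19 ± 0.29 (SE), not called.

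**Figure D3:**
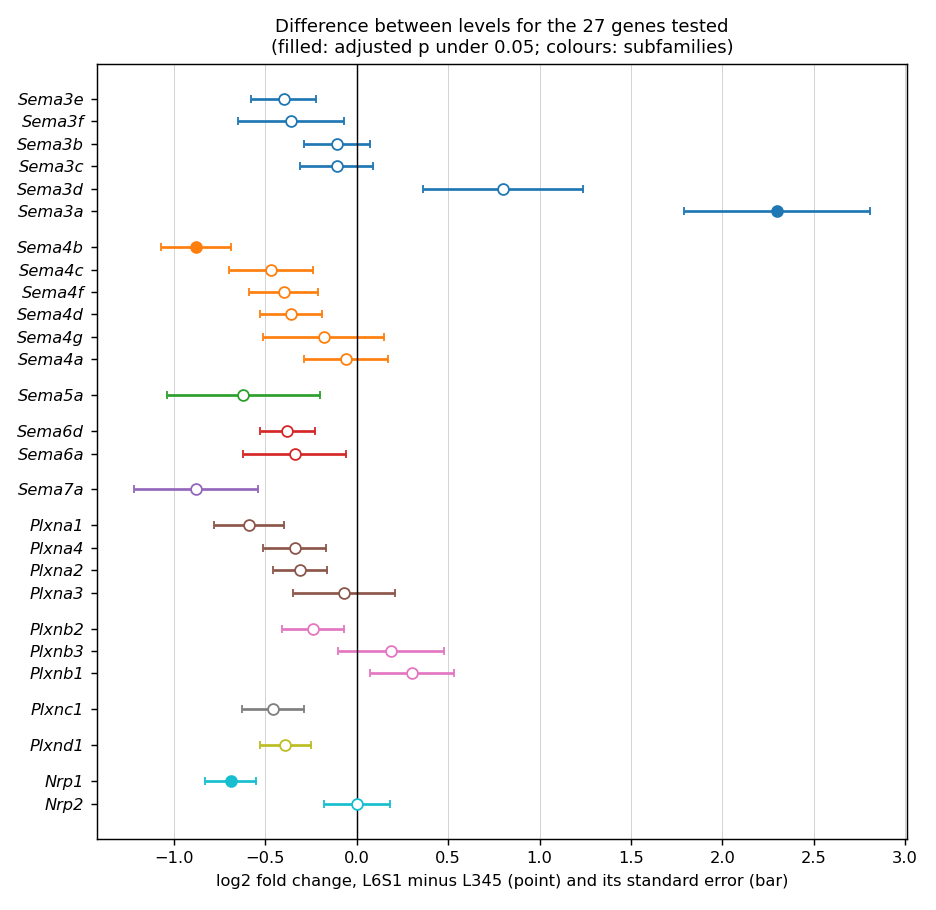
Log2 fold change, L6S1 minus L345 (x axis), with its standard error (bar) for the 27 genes tested, grouped and coloured by subfamily on the y axis; filled points have an adjusted p under 0.05. Only Nrp1 (-0.69), Sema4b (-0.88) and Sema3a (2.30) are filled, and most of the other points lie left of 0.

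As a group the members leaned below 0: 23 of the 27 tested had a negative difference (85.2%, against 55.5% of all genes), with a median of -0.34 against -0.06. At an unadjusted p under 0.05 there were 9 members, 8 of them lower, against 26.6% of all genes, and 13.3% lower. In 2 members (Nrp1 and Sema4b) all 6 L6S1 libraries lay below all 6 L345 libraries, as for 1.22% of all genes, and in 1 (Sema3a) all lay above, as for 2.02%. Length moved with this lean. The tested members had a median gene length, as given in the count tables, of 7119 bases against 3569 for all genes tested. Their median GC content, in the longest annotated transcript, was 55.0% against 49.4%. Across 15193 genes the level difference had a rank correlation of -0.41 with the length of that transcript and 0.04 with its GC content. This is a description in which genes share libraries. For each library the median log2 deviation from the gene mean was taken in genes with long and with short transcripts. Long minus short gave 0.09 to 0.53 in the L345 libraries, -0.21 in female L345 D being the exception, and -0.83 to 0.05 at L6S1. In a fit with per-library offsets for GC content and length, 15 of the 27 members were below 0 with a median of -0.02, against 0.01 over all genes. Nrp1, Sema4b and Sema3a were called in that fit too, at -0.61, -0.75 and 2.55 with adjusted p of 0.00795, 0.00669 and 0.00919. Plxna1 moved to -0.20 and Plxnd1 to 0.09. With length and GC content in the fit the lean of the group was not kept, while Nrp1 and Sema4b were still called. The offsets were fitted to each library's own values, and length went with level across libraries. They therefore also remove any level difference that goes with length, so this fit cannot tell such a difference from a technical one. Sema3a was tested only through its L6S1 values in either fit.

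**Figure D4:**
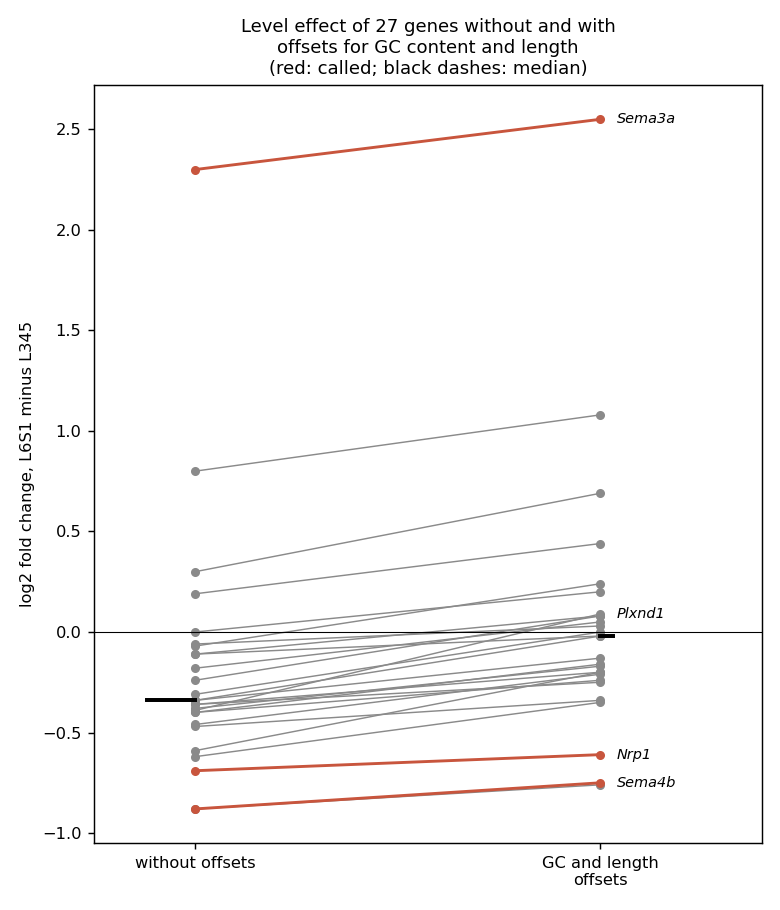
Log2 fold change, L6S1 minus L345 (y axis), of the 27 genes in the fit without offsets (left) and with offsets for GC content and transcript length (right), 1 line a gene; red lines are the 3 called genes and black dashes the medians. The median moves from -0.34 to -0.02, whereas Nrp1 moves only from -0.69 to -0.61.

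Many of the lowest values came from 1 library. Of the 27 members tested, 11 had their lowest level of all 12 libraries in female L6S1 B, whereas library C of that group held the lowest level of 4. The shares of all genes lowest in these libraries were not computed, so the counts are not read as particular to the members. The 13 members lowest among L6S1 libraries in female L6S1 B had a median GC content of 57.3%, against 42.0% for the 5 lowest in library C. The median log2 deviation from the gene mean, in high-GC genes minus that in low-GC genes, was -0.99 in female L6S1 B. In C of that group it was 0.48, and it was -0.46 to 0.60 in the others. Leaving out female L6S1 B gave a median of -0.20 over the members, with Nrp1 and Sema4b called lower and none called higher. The part of base composition in single members was not tested beyond the offsets.

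The level difference was also taken within each sex from the same fit. In males 0 members were called by edgeR (4 at an unadjusted p under 0.05, smallest adjusted p = 0.315; DESeq2 called 0), where 0.222% of all genes were. Limma-voom called 6 members in males, in a fit that called 12.2% of all genes. In females 0 were called (8 at an unadjusted p under 0.05, smallest adjusted p = 0.129; limma-voom called 0), where 0.36% of all genes were. DESeq2 called 1 member in females, Sema4b, and 4.91% of all genes. At an unadjusted p under 0.05 (edgeR) there were 1349 of all 15281 genes in males and 3674 in females. Nrp1 had a log2 difference of -0.73 ± 0.20 in males and -0.66 ± 0.20 in females, Sema4b -0.87 ± 0.27 and -0.88 ± 0.27, and Sema3a 1.93 ± 0.70 and 2.67 ± 0.73 (SE, n = 3 against 3). The pooled difference is the mean of these within-sex values, so their shared sign is no separate evidence. Members below 0 in both sexes numbered 18 of 27, against 36.6% of all genes. No difference between the sexes was called: the interaction called 0% of all genes and 0 members, and 0 members by DESeq2 or limma-voom. At an unadjusted p under 0.05 (edgeR) the interaction had 0 members and 714 of all 15281 genes. Without female L6S1 A the interaction called 817 genes (5.21%) and the sex contrast 991 (6.32%), with 0 members in either. On simulated counts the interaction test recovered 7.5% of genes changed 2-fold and 80.5% of those changed 4-fold, against 88.5% and 100% for the level test, so a 2-fold difference between the sexes would mostly go uncalled. The simulation changed only genes that were not scarce and gave all groups the same spread. Real replicates of female L6S1 differed more (chi-square per degree of freedom 119.1 to 140.1) than those of the other groups (10.6 to 61.4). These shares may therefore be too high for the real libraries. The interaction's smallest member p was 0.174 for Plxnd1 (adjusted p = 0.871, edgeR), whose difference was -0.20 ± 0.19 in males and -0.59 ± 0.19 in females. Sema7a differed most in size, -0.49 ± 0.46 in males and -1.27 ± 0.49 in females, with an interaction of -0.78 ± 0.67 (SE). Females against males over both levels gave 0 called members (0.0589% of all genes), and 0 by DESeq2 or limma-voom. At an unadjusted p under 0.05 (edgeR) this contrast had 0 members and 911 of all 15281 genes. The smallest member p there was 0.0824 for Sema6a (-0.53 ± 0.28, adjusted p = 0.764, edgeR).

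**Figure D5:**
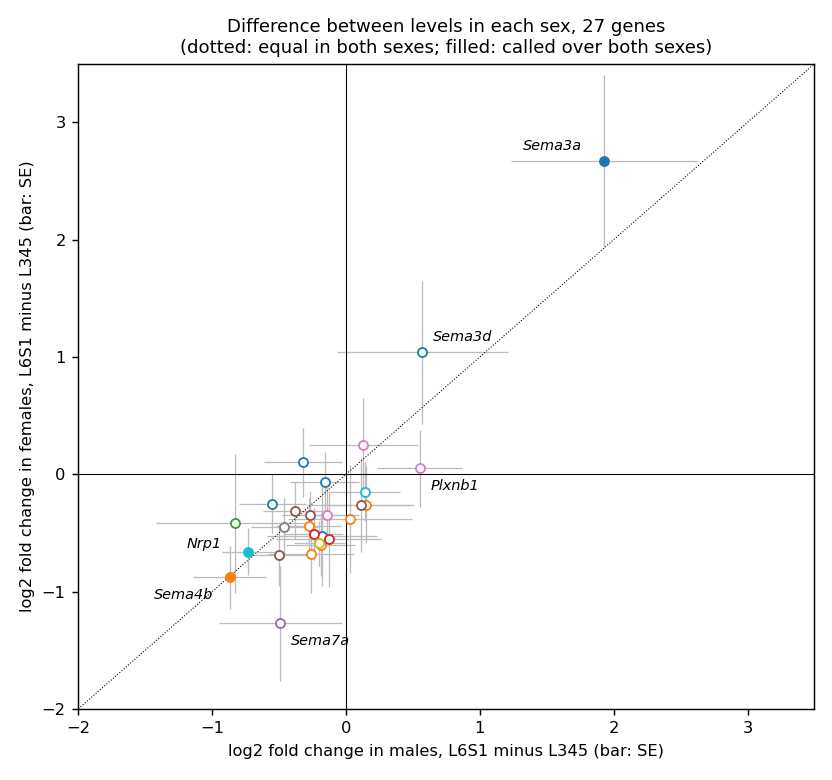
Log2 fold change, L6S1 minus L345, in males (x axis) and in females (y axis) with standard errors (grey bars) for the 27 genes tested, coloured by subfamily; the dotted line marks equal values and filled points the genes called over both sexes. Sema3a lies at 1.93 and 2.67, Nrp1 at -0.73 and -0.66 and Sema4b at -0.87 and -0.88.

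Beyond the members, 65 genes of the same pathway were listed with earlier results of these data known. Of these, 56 were tested and 1 was called, lower, against 2.33% of all genes, with a median difference of -0.20. At an unadjusted p under 0.05 there were 16 of the 56, near the 26.6% of all genes. Of the 56, 13 were lower, a larger share than the 13.3% of all genes. That gene was Limk1, a kinase that phosphorylates cofilin downstream of plexins, among 35 tested effectors (GTPases, their exchange factors, MICALs, kinases and adaptors; median -0.27). Limk1 averaged 16.1 ± 4.80 CPM at L345 and 8.26 ± 2.96 at L6S1 (SD, n = 6 each), a log2 fold change of -1.02 ± 0.22 (SE; adjusted p = 0.0327, edgeR), below the L345 mean of its sex in 6 of 6 L6S1 libraries. Its call was lost in 8 of 12 fits without 1 library, with values of -1.16 to -0.90 over the 12. The call was kept without male L345 B, female L345 D or female L6S1 A or C. It was also lost in the fits with the glial covariate (adjusted p = 0.16, edgeR) and with the label set (0.121). Of 19 adhesion molecules and other co-receptors 12 were tested and 0 called (3 at an unadjusted p under 0.05; median -0.32). The smallest p belonged to the integrin subunit Itga1 (-1.20 ± 0.43, adjusted p = 0.11), the Nrp1 partner L1cam (-0.39 ± 0.16, adjusted p = 0.137) and Ptk7 (-0.57 ± 0.26, adjusted p = 0.184; all SE, edgeR). The 5 collapsin response mediator proteins, cytosolic carriers of the Sema3a response, had 0 called (1 at an unadjusted p under 0.05; median -0.09). Their smallest p belonged to Dpysl4 (0.53 ± 0.20, adjusted p = 0.12), Dpysl5 (-0.28 ± 0.24, adjusted p = 0.453) and Dpysl3 (-0.10 ± 0.10, adjusted p = 0.499; all SE, edgeR). Among growth factors that bind neuropilins, 4 of 5 were tested and 0 called (1 at an unadjusted p under 0.05; median 0.12), with Pgf at 0.49 ± 0.23 (adjusted p = 0.188), Vegfb at -0.36 ± 0.23 (adjusted p = 0.319) and Vegfa at 0.16 ± 0.22 (adjusted p = 0.656; all SE, edgeR).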

How the data were processed

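The authors deposited, for each library, whole-number counts with CPM and RPKM; Subread and featureCounts 1.4.5 on GRCm38.p2 made them, per the submitters' processing notes (annotation release, strandedness: not given in the sources used here). Deposited CPM equalled the count scaled to the total of its table and the deposited RPKM that CPM per kilobase; RPKM served only to rank genes. Libraries were made from 10 ng of total RNA with 12 PCR cycles and carried no molecular identifiers, per the labels' protocols. Counts were tested with edgeR 4.0.16 (R 4.3.3): TMM scaling, filterByExpr by group, a robust quasi-likelihood fit of 4 group means (8 residual degrees of freedom) over 15281 genes, and Benjamini-Hochberg adjustment; calls are at an adjusted p under 0.05. The fit was tested on simulated counts. CPM in the text is TMM-scaled. Alternatives included DESeq2 1.42.0 and limma-voom (limma 3.58.1). The members, lists and alternatives were chosen with earlier results of these data known. Values in every library are given for members called, the highest per length of each subfamily, those with an unadjusted p under 0.05, and Nrp2. Pathway genes are named when called, otherwise the 3 smallest p of a list. Marker genes are named when called, or when the most abundant or the defining genes of their list. GENCODE M21 (GRCm38) gave symbols for 40254 genes and GC content and length for 15193 of those tested. No replicate pair held identical counts, and chi-square per degree of freedom between replicates was 10.6 to 140.1.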

Additional observations from a re-analysis of the deposited data

How the results depend on the processing

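Of 359 alternative values for the 14 members given in every library and Limk1, 283 kept direction and side of the threshold, 42 lost the call, 20 gained one and 14 changed sign. The count of members called lower was 2, in a fit that called 2.33% of all genes. It became 0 with the label set as a term (0.818% of all genes called) or the glial covariate (0.51%). The count was 7 with the replicate block (13.0%), 11 by limma-voom (21.4%) and 0 to 6 with 1 library left out (0.51% to 25.7%). In the 8 earlier libraries and without female L6S1 B and C, female L6S1 A stands alone in its group. No count over both sexes is given for these fits. The 1 member called higher became 0 under the filter of 1 CPM in 6 libraries, where Sema3a was not tested. It also became 0 with the label set and with the glial covariate, and was 0 to 1 with 1 library left out. All genes called numbered 356, against 545 with upper-quartile scaling, 841 without a filter, 125 with the label set, 137 without female L6S1 B and C, 1985 with the replicate block, 78 with the glial covariate, 745 with offsets, 3268 by limma-voom, 1518 by DESeq2 and 80 (without female L345 B) to 4031 (without female L6S1 A) with 1 library left out. Members called in males became 1 in the 8 earlier libraries (with 1.23% of all genes), 1 with female L6S1 B and C left out (0.823%) and 6 by limma-voom (12.2%). Members called in females became 2 without a filter (0.96%), 1 by DESeq2 (4.91%) and 0 to 7 with 1 library left out (7 of 29 without female L6S1 A, where 24.5% of all genes were called). Sign changes among these 14 were in members not called: with offsets Plxna2 (0.00), Plxnb2 (0.08), Plxnd1 (0.09) and Nrp2 (0.20), and for Nrp2 also RLE scaling (0.02), upper-quartile scaling (0.06), the 1 CPM filter (0.00), the replicate block (0.09), DESeq2 (0.02) and 1 library left out (-0.12 to 0.10). The cause was not tested, apart from smaller sets of libraries and genes by construction. The letters of the labels were not taken to pair the libraries, and the labels do not say that they do. Deviations from the group means were correlated over 0.1 in 7 of 15 same-letter pairs (-0.20 to 0.31). These were 0 of 3 for A, 5 of 6 for B (0.08 to 0.31) and 2 of 6 for C. Pairs of different letters had a smaller share, 5 of 39. With the letter as a block, 8 members and 13.0% of all genes were called. Whether libraries of 1 letter share a source was not tested, and the main fit ignores any such link. Depth limits Sema3a and the 4 members not tested. Sex contrast and interaction stayed at 0 members under every alternative run.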
